A study of Mus musculus with 6 samples.

Results

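The mitochondrial genome transcripts are the RNAs made from the mitochondrion's own DNA. They were taken as every row of the deposited table whose symbol starts with mt-, which gave 17 of 32801 gene rows. Of these, 2 are ribosomal RNAs (rRNA), 13 are messenger RNAs (mRNA) and 2 are transfer RNAs (tRNA, mt-Tc and mt-Tp). The reference annotation (GENCODE M21, GRCm38, the assembly that mm10 names) lists 37 mitochondrial genes, and the other 20, all tRNAs, are not analysed here.

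Regulatory T cells (Treg) of the thymus were sorted from mice 3 weeks old and their RNA was sequenced, with 3 libraries from NOD mice and 3 from C57BL/6 (B6) mice. NOD is an inbred strain that develops autoimmune diabetes, and C57BL/6 is the strain of the reference genome. All cells were GFP-, CD4+CD8- and Thy1.1+, and neither what GFP and Thy1.1 report nor whether animals were pooled is stated in the labels. Nothing in the labels says that the libraries come from separate animals, so the tests measure the spread between libraries, which may be technical.

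Mitochondrial DNA is transcribed from both strands into long precursors, and most mRNAs and rRNAs are cut out of them at the tRNAs that lie between the genes. The mRNAs encode subunits of the respiratory chain complexes and of ATP synthase, while every protein needed to copy, transcribe and translate this genome is made from nuclear genes. Pieces of mitochondrial DNA have also been inserted into the chromosomes during evolution, and reads from a recent nuclear copy can be hard to assign to its place of origin. Treg are known for relying more on oxidative metabolism than effector T cells do.

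Values are normalized read counts, taken to be counts divided by the authors' size factor of each library and rounded. After their columns, the NOD libraries are numbered 2, 10 and 18 and those of B6 4, 12 and 20. Library totals were 16097369 to 17625903 normalized counts. Foxp3, the factor that defines Treg, stood at 2018 ± 305.3 in NOD libraries and 2061 ± 343.8 in B6 libraries (mean and SD, n = 3 each). Of the 6 Treg and T cell genes listed, Cd3e, a T cell receptor subunit, was higher in NOD (log2 difference 0.77, limma adjusted p = 0.0022), 0 were lower and 5 did not pass the test, while the authors' adjusted p gives 2 higher and 0 lower. Cd4 (0.31, adjusted p = 0.077) and Ctla4 (0.22, adjusted p = 0.35) did not overlap between strains, and Ikzf2 stood at -0.34 (adjusted p = 0.2). The summed markers of double-positive thymocytes (6 genes, 4 tested, Cd8a higher and Rag1 lower in NOD by limma, 1 higher and 0 lower by the authors' adjusted p) ranged from 238 to 320 in NOD and 250 to 304 in B6, and those of B cells (5 genes, 0 called) from 136 to 196 and 144 to 193. NOD library 10 stood apart: it held 318171 counts of Lars2, the mitochondrial leucyl-tRNA synthetase, where the other 5 libraries held 1381 to 13044. It also held 224844 counts of CT010467.1, an rRNA gene model on chromosome 17, against 5010 to 17317 in the others. What RNA the reads of both rows came from was not analysed here.

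Of the 15 nuclear copies of these genes in the table, 7 lie in a single block on chromosome 1, and reference letters from it are shown first because the rows that separate the strains, mt-Co3 and mt-Nd3, have their copies there. The block covers chr1:24611535-24616197 on the minus strand in GRCm38, 4663 bases that hold 7 annotated copies of neighbouring mitochondrial genes in mitochondrial order. In it Gm28661 (copy of mt-Co2, 681 aligned bases), Gm10925 (of mt-Atp6, 678 bases), Gm28437 (of mt-Co3, 783 bases), Gm10222 (of mt-Nd4l, 294 bases) and Gm28439 (of mt-Nd4, 876 bases) matched their mitochondrial gene at 100% identity. Gm28438 (of mt-Nd3, 345 bases, 99.71% identity) and Gm29216 (of mt-Co1, 483 bases, 99.793%) differed from theirs at 1 base each. The differences are T3C in mt-Nd3 (position 9461 of the mitochondrial genome) and A1066T in mt-Co1 (position 6393). They are counted from 1 at the mitochondrial gene's first base, with the mitochondrial base first and the copy's base last. Below are 60-base stretches of reference transcripts, 5′ to 3′, with the differing base in capitals. They come from mt-Nd3 (M:9459-9518, plus strand), Gm28438 (chr1:24613060-24613119, minus strand), mt-Co1 (M:6390-6449, plus strand), Gm29216 (chr1:24616129-24616188, minus strand), mt-Co3 (M:8607-8666, plus strand) and Gm28437 (chr1:24613912-24613971, minus strand), all within exons. The mt-Co3 pair has no capital because its letters are the same throughout.
mt-Nd3: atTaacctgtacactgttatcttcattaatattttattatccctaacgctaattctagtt
Gm28438: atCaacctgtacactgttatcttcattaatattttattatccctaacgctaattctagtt
mt-Co1: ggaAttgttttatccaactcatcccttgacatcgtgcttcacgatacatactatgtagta
Gm29216: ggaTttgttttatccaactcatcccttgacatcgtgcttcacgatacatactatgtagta
mt-Co3: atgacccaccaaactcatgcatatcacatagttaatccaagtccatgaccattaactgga
Gm28437: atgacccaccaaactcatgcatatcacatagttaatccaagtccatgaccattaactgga

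As shares of all normalized counts, the mitochondrial rows took 6.62% in NOD library 2, 2.08% in NOD library 10 and 9.28% in NOD library 18, and 6.51%, 2.62% and 7.61% in B6 libraries 4, 12 and 20. The strains overlapped, at 5.99% ± 3.64 for NOD and 5.58% ± 2.63 for B6 (mean ± SD, n = 3 each). The difference of 0.411 percentage points was well inside the spread between libraries (exact two-sided permutation test, p = 0.90; 3 against 3 libraries cannot go below 0.10). Its sign depended on single libraries: without NOD library 18 it was -1.233 and without NOD library 10 it was 2.369.

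The rRNAs made up most of this share in every library. They took 5.92%, 1.599% and 8.70% of all counts in NOD libraries 2, 10 and 18 and 5.81%, 1.99% and 6.97% in B6 libraries 4, 12 and 20. The strain means were 5.41% ± 3.58 and 4.92% ± 2.61 (exact permutation test, p = 0.90, n = 3 each). The mRNAs took far less and varied far less, at 0.695%, 0.476% and 0.574% in NOD and 0.699%, 0.628% and 0.638% in B6. Their means were 0.582% ± 0.110 and 0.655% ± 0.0385 (exact permutation test, p = 0.40, n = 3 each). The tRNAs took 0.00159% to 0.00292% of counts in NOD and 0.00158% to 0.00263% in B6 (exact permutation test, p = 0.50, n = 3 each).

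Within the mitochondrial counts the balance of rRNA to mRNA varied between libraries of the same strain. The rRNA share of mitochondrial counts was 89.46%, 77.01% and 93.78% in NOD libraries 2, 10 and 18 and 89.23%, 75.93% and 91.58% in B6 libraries 4, 12 and 20. NOD library 10 and B6 library 12, the lowest of their strains, lay next to each other. Among 6 genes that follow handling and RNA state, the heat shock genes Hspa1a (80 and 134) and Hspa1b (171 and 298) and the early response gene Fos (1696 and 2142) were at their strain's highest in these 2 libraries, and the nuclear RNA Neat1 (2801 and 3489) was at its lowest. Jun was highest in NOD library 10 but not in B6 library 12, Malat1 was lowest in NOD library 10 but not in B6 library 12, and 0 of the 6 differed between strains by limma (1 lower at an unadjusted p below 0.05, 0 by the authors' adjusted p). Their part in the rRNA shares was not tested. The labels describe a total RNA library kit, and how far rRNA was removed before sequencing is not given in the sources used here, so rRNA content of the cells and removal of rRNA from the library cannot be told apart.

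**Figure D1:**
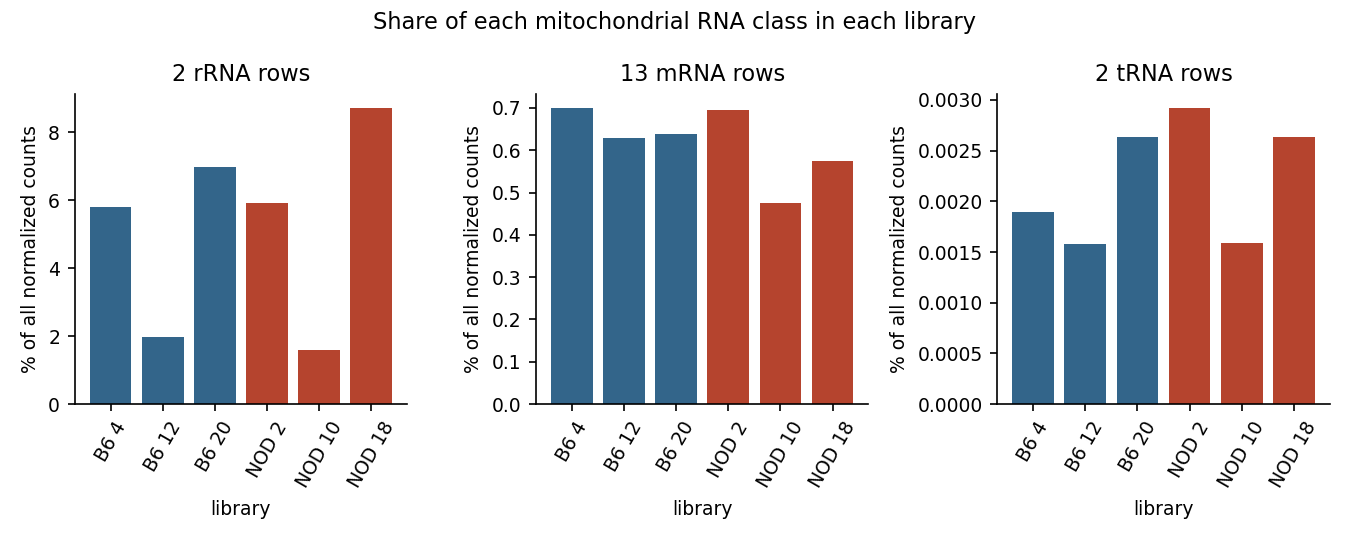
Shares of all normalized counts (percent, y axis, a separate scale per panel) taken by the 2 rRNA, 13 mRNA and 2 tRNA rows, with 1 bar for each of the 6 libraries (B6 blue, NOD red). The rRNA share ran from 1.599% in NOD library 10 to 8.70% in NOD library 18 and the mRNA share from 0.476% to 0.699%, with NOD and B6 overlapping in all 3 panels.

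The 2 rRNAs are the RNA cores of the small (mt-Rnr1) and large (mt-Rnr2) subunits of the mitochondrial ribosome. mt-Rnr1 (M:70-1024, plus strand) held 140140, 23772 and 261564 normalized counts in NOD libraries 2, 10 and 18 and 155821, 30882 and 198581 in B6 libraries 4, 12 and 20. The strains overlapped fully, and the highest library was 11 times the lowest. The log2 difference of NOD from B6 was -0.04 (SE 0.81, 95% interval -1.83 to 1.74, limma adjusted p = 0.99).

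mt-Rnr2 (M:1094-2675, plus strand) held 863954, 257196 and 1248570 in NOD and 819983, 288776 and 1030211 in B6. Again the lowest libraries were NOD library 10 and B6 library 12 (log2 difference 0.06, SE 0.57, interval -1.18 to 1.31, limma adjusted p = 0.97). With intervals this wide, strain differences of about 2-fold in either direction would not have been detectable for the rRNAs in this fit. The ratio of mt-Rnr2 to mt-Rnr1 was 6.17, 10.8 and 4.77 in NOD and 5.26, 9.35 and 5.19 in B6, so the rRNAs did not fall by the same factor in the low libraries.

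Against the rest of the table the rRNAs were uneven: the SD of log2 values within strain was 1.64 for mt-Rnr1, at the 99.8th percentile of all genes tested, and 1.09 for mt-Rnr2, at the 98.3rd percentile. Over all 16442 genes tested the median was 0.25, and over the 13 mitochondrial genes tested it was 0.53. The most even mitochondrial rows were mt-Co1 (0.14) and mt-Co3 (0.17).

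Of the 17 mitochondrial rows, 13 reached 10 normalized counts in 3 or more libraries, the filter used, and were tested. In NOD 1 of the 13 was higher (mt-Co3), 0 were lower and 12 did not pass the test, where passing meant a Benjamini-Hochberg adjusted p below 0.05 over all genes tested (limma). Over all of these, 9.89% of genes were called, 4.59% higher and 5.3% lower in NOD. At an unadjusted p below 0.05 limma again gave 1 mitochondrial row higher and 0 lower, and in the authors' deposited table, where 9.75% of genes with an adjusted p pass the same threshold, the count was also 1 higher and 0 lower. The libraries of the strains did not overlap for 1 of the 13 (mt-Co3), against 24.1% of all genes tested. The median log2 difference was 0.242 over the 13 and 0.014 over all genes.

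**Figure D2:**
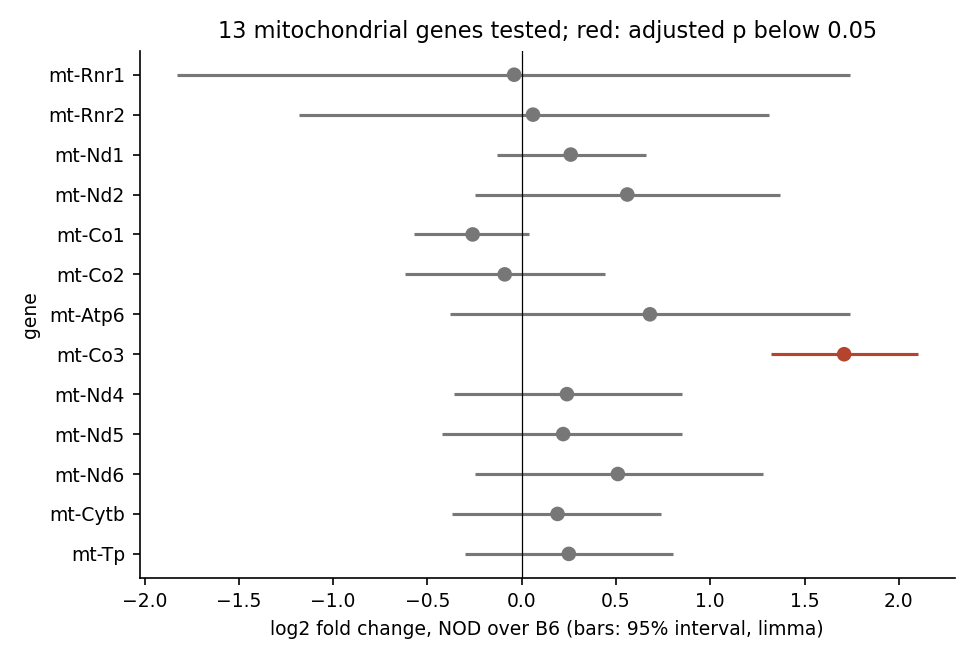
Log2 difference of NOD from B6 (x axis) for the 13 tested mitochondrial genes in genome order, with points for limma's estimates, bars for their 95% intervals and red for an adjusted p below 0.05. The interval of mt-Co3 runs from 1.32 to 2.10, and those of the other 12 genes include 0.

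Complex IV, cytochrome c oxidase, has its catalytic core encoded by mt-Co1, mt-Co2 and mt-Co3. mt-Co3 (M:8607-9390, plus strand, ENSMUSG00000064358.1) held 366, 267 and 334 normalized counts in NOD libraries 2, 10 and 18 and 98, 94 and 100 in B6 libraries 4, 12 and 20. Every NOD library was above every B6 library, at 322.3 ± 50.52 against 97.33 ± 3.055 (SD, n = 3 each), 3.31-fold. The log2 difference was 1.71 (SE 0.18, interval 1.32 to 2.10, limma adjusted p = 7.7e-05). It was called in 16 of 16 alternative settings, with log2 differences of 1.25 to 1.85 and limma adjusted p between 7.3e-06 and 0.0014. All of these settings start from the same deposited counts. Over 783 aligned bases mt-Co3 matches its nuclear copy Gm28437 at 100% identity, and how reads were assigned between the 2 rows was not tested. In the authors' deposited table the log2 fold change is 1.73 with a standard error of 0.26 and an adjusted p of 2.28e-09.

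Of the markers of other cell types, 2 from the dendritic cell list were lower in NOD, Cd74 (log2 difference -1.06) and H2-Aa (-1.41). These were 2 of 3 tested of 6 listed (1 by the authors' adjusted p), beside 5.3% lower over all genes tested. The other tested marker, Xcr1, overlapped between strains (-0.30, limma adjusted p = 0.59). The summed level of the list was 425 to 544 in NOD and 916 to 1092 in B6. Cd74 alone held 315 to 406 and 654 to 792 of this. Macrophage markers (5 listed, 2 tested, 0 called by limma, 1 at an unadjusted p below 0.05 and 1 by the authors' adjusted p) summed to 18 to 38 and 43 to 82. In bulk RNA, fewer cells of a type and less RNA per cell cannot be told apart. Their part in the mt-Co3 difference was not tested. Without NOD library 10 and B6 library 12, the libraries low in rRNA, the log2 difference of mt-Co3 was 1.81 (limma adjusted p = 0.0014).

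mt-Co1 (M:5328-6872, plus strand), the subunit that holds the oxygen-reducing centre, was by far the most abundant mRNA. It held 84174, 66706 and 74172 in NOD and 91156, 82251 and 95858 in B6, or 75017 ± 8765 and 89755 ± 6911. NOD library 2 lay above B6 library 12, so the strains overlapped, and the log2 difference of -0.26 (SE 0.14, interval -0.57 to 0.04) did not pass the test (limma adjusted p = 0.35). The authors' deposited table gives -0.26 with a standard error of 0.11 and an adjusted p of 0.121.

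mt-Co2 (M:7013-7696, plus strand), which takes electrons from cytochrome c, held only 66, 68 and 65 in NOD and 56, 77 and 82 in B6 (log2 difference -0.09, SE 0.24, interval -0.62 to 0.44, limma adjusted p = 0.9). The 3 rows of this complex thus held very different counts per kilobase of gene, with NOD means of 48555 for mt-Co1, 411.1 for mt-Co3 and 96.98 for mt-Co2. Of their 50-base windows, 51.1%, 99.9% and 100%, in the same order, also occur in an annotated nuclear transcript. How reads from such windows were counted is not given, and their part in these levels was not tested.

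Complex I, NADH dehydrogenase, has 7 of its subunits encoded here, and none of the 5 tested was called. mt-Nd1 (M:2751-3707, plus strand) held 13335, 7934 and 10577 in NOD and 10482, 8060 and 7669 in B6 (log2 difference 0.26, SE 0.18, interval -0.13 to 0.66, limma adjusted p = 0.49). mt-Nd2 (M:3914-4951, plus strand) held 3491, 1343 and 2468 and 2575, 1554 and 907 (0.56, SE 0.37, interval -0.25 to 1.37, adjusted p = 0.47). In both genes the strains overlapped, and NOD library 2 was the highest of all.

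mt-Nd4 (M:10167-11544, plus strand) held 2390, 1166 and 1727 in NOD and 2099, 1385 and 1000 in B6 (log2 difference 0.24, SE 0.28, limma adjusted p = 0.72). mt-Nd5 (M:11742-13565, plus strand) held 3081, 1139 and 2174 and 2039, 1781 and 1343 (0.22, SE 0.29, adjusted p = 0.77). NOD library 10 was low in both, within or below the range of the B6 libraries.

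mt-Nd6 (M:13552-14070) is the only mitochondrial mRNA on the minus strand. It held 421, 132 and 283 in NOD and 218, 140 and 176 in B6, and NOD library 10 was the lowest of all 6. The log2 difference was 0.51 (SE 0.35, interval -0.25 to 1.28, limma adjusted p = 0.48). Without NOD library 10 it was 0.97 and was called (adjusted p = 0.019), and without both NOD library 10 and B6 library 12 it was 0.81 and was not (adjusted p = 0.087). mt-Nd6 overlaps mt-Nd5 by 14 bases on the opposite strand, and since the strand setting of the counting is not given in the sources used here, reads from the opposite strand cannot be told apart. mt-Nd6 stood at 13.7%, 11.6% and 13.02% of the mt-Nd5 counts in NOD and 10.7%, 7.86% and 13.1% in B6.

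The remaining complex I rows, mt-Nd3 and mt-Nd4l, did not pass the filter. mt-Nd3 (M:9459-9806, plus strand) held 6, 2 and 2 counts in NOD and 9, 9 and 13 in B6. Every NOD library was below every B6 library, at levels where a few reads decide the value. In a fit without a filter its log2 difference was -1.49 (limma adjusted p = 0.25), and the authors' deposited table gives -1.53 with a standard error of 0.68 and an adjusted p of 0.172. mt-Nd4l held 0, 0 and 1 in NOD and 0 in each B6 library.

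Complex III has its cytochrome b encoded by mt-Cytb (M:14145-15288, plus strand), which held 10477, 4819 and 7815 in NOD and 8726, 5723 and 5365 in B6 (log2 difference 0.19, SE 0.25, interval -0.37 to 0.74, limma adjusted p = 0.78). The membrane subunits of ATP synthase, mt-Atp6 and mt-Atp8, were near the bottom of the range. mt-Atp6 (M:7927-8607, plus strand) held 35, 10 and 23 in NOD and 11, 11 and 15 in B6 (0.68, SE 0.48, interval -0.38 to 1.74, adjusted p = 0.51). mt-Atp8, whose frame shares 43 bases with mt-Atp6, held 0, 1 and 1 in NOD and 0 in each B6 library.

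The 6 mRNAs mt-Nd1, mt-Nd2, mt-Nd4, mt-Nd5, mt-Nd6 and mt-Cytb ranked the libraries in much the same way. Within NOD, library 2 was the highest for 6 of 6 and library 10 the lowest for 6 of 6. Within B6, library 4 was the highest for 6 of 6 and library 20 the lowest for 5 of 6 (for mt-Nd6 it was library 12). This order differed from that of the rRNAs, which were highest in NOD library 18 and B6 library 20. These 6 values come from the same libraries and share their depth and handling.

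**Figure D3:**
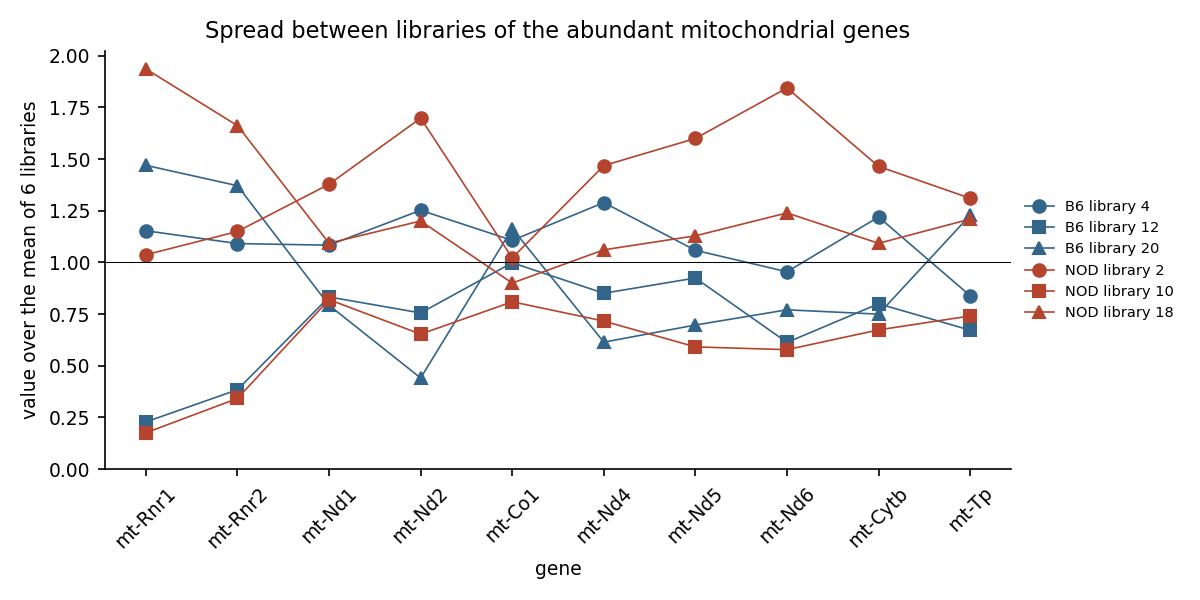
Each library's value divided by the mean of the 6 libraries (y axis, linear ratio) for 10 abundant mitochondrial genes, with 1 line per library (B6 blue, NOD red; lines join the values of a library and imply no order). NOD library 10 and B6 library 12 lie far below the mean for mt-Rnr1 and mt-Rnr2, all 6 libraries lie close together for mt-Co1, and NOD library 2 lies highest from mt-Nd4 to mt-Cytb.

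As shares of the mitochondrial mRNA counts, mt-Co1 took 71.4%, 79.8% and 74.4% in NOD and 77.6%, 81.4% and 85.2% in B6 (exact permutation test, p = 0.20, n = 3 each). The share of mt-Nd1 was 11.3%, 9.49% and 10.6% in NOD against 8.92%, 7.97% and 6.82% in B6, and every NOD library lay above every B6 library (exact permutation test, p = 0.10, the smallest possible, n = 3 each). mt-Co3 took 0.311%, 0.319% and 0.335% in NOD and 0.0834%, 0.0930% and 0.0889% in B6 (p = 0.10 by the same exact permutation test). With mt-Nd3, these were 3 of 13 shares that separated the strains. For comparison, 24.1% of all genes tested separated the strains by their normalized counts, so this number of shares does not stand out. After Benjamini-Hochberg adjustment of these exact permutation p-values over the 13, the lowest was 0.33. The exact test cannot go below 0.10 with 3 against 3 libraries. No share could therefore have passed at 0.05, and the adjustment decides nothing about the shares. When every mitochondrial gene was instead scaled to the summed mitochondrial mRNA of its library, mt-Co3 was the only one of the 13 tested that was called (log2 difference 1.85, SE 0.24, limma adjusted p = 7.3e-06).

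The tRNA rows are short, and a library made from fragments of long RNA holds few reads of mature tRNAs. mt-Tp, the tRNA for proline, is shown because it is the only tRNA with enough reads to test. Its reference sequence (M:15356-15422, minus strand, 67 bases) is given 5′ to 3′ with the anticodon, bases 31 to 33, in capitals.
mt-Tp: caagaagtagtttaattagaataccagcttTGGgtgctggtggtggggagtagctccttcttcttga
mt-Tp held 495, 280 and 457 normalized counts in NOD and 317, 254 and 464 in B6. The strains overlapped (log2 difference 0.25, SE 0.25, interval -0.30 to 0.80, limma adjusted p = 0.67). mt-Tc, the tRNA for cysteine (M:5192-5257, minus strand), held 1 count in NOD library 18 and 1 in B6 library 4, and 0 in the other 4 libraries.

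Per kilobase of gene, the order of the levels was the same at the top in both strains. In B6 the means were 450689 for mt-Rnr2, 134480 for mt-Rnr1, 58094 for mt-Co1, 9130 for mt-Nd1, 5773 for mt-Cytb, 5149 for mt-Tp, 1617 for mt-Nd2, 1085 for mt-Nd4, 943.5 for mt-Nd5 and 343 for mt-Nd6. In NOD they were 499309, 148508, 48555, 11092, 6734, 6129, 2345, 1278, 1168 and 536.9 in the same order. Neighbours such as mt-Cytb and mt-Tp, or mt-Nd4 and mt-Nd5, lay within each other's range over libraries and have no firm order. Below mt-Nd6 came mt-Co3 (411.1 in NOD, 124.1 in B6), mt-Co2 (96.98 and 104.8), mt-Atp6 (33.28 and 18.11) and mt-Nd3 (9.579 and 29.69).

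**Figure D4:**
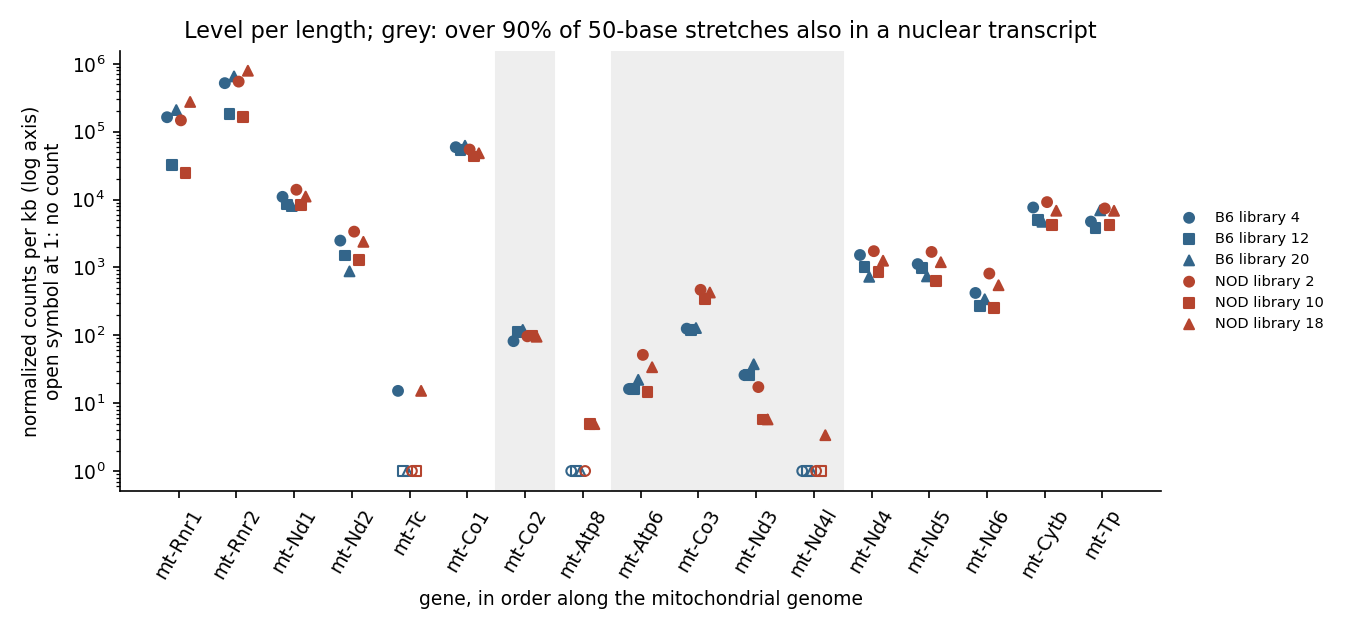
Normalized counts per kilobase of gene (y axis, log scale) for the 17 mitochondrial rows in order along the mitochondrial genome, with 1 point per library (B6 blue, NOD red), open symbols at 1 for libraries with no count, and grey behind genes with over 90% of their 50-base windows in a nuclear transcript. Levels ran from 789235 for mt-Rnr2 in NOD library 18 down to 0, and the rows from mt-Co2 to mt-Nd4l lay below their neighbours mt-Co1 and mt-Nd4.

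Among the mRNAs, the 6 from mt-Co2 to mt-Nd4l lie next to each other on the genome and had the lowest mean levels per kilobase in both strains. The tRNA row mt-Tc, upstream of mt-Co1, was low as well. The chromosome 1 block spans these 6 genes and also holds copies of the last part of mt-Co1 and the first part of mt-Nd4, which were far more abundant. The share of each gene's 50-base windows that occur letter for letter in an annotated nuclear transcript was 100% for mt-Co2, 99.5% for mt-Atp6, 99.9% for mt-Co3, 98% for mt-Nd3 and 98.8% for mt-Nd4l, and these 5 genes had 0 to 466.8 normalized counts per kilobase in any library. It was under 10% for mt-Nd1, mt-Nd2, mt-Nd5, mt-Nd6 and mt-Cytb, which had 254.3 to 13934 per kilobase. mt-Co1 (51.1%) and mt-Nd4 (62.2%) lay between in sharing, with 725.7 to 62044 per kilobase. mt-Atp8 is an exception at 0% and 0 to 1 counts. Most of its stretch in the block falls between the gene models Gm28661 and Gm10925, which lie as far apart as their mitochondrial counterparts. The block's annotated transcripts do not hold that part. The last 43 bases of mt-Atp8 are shared with mt-Atp6 and lie in Gm10925, but they are shorter than a 50-base window. How the authors' counting treated reads that map to several places is not given in the sources used here, and its part in these levels was not tested.

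The nuclear copies were therefore read beside their mitochondrial genes. Of 15 copies in the table, 7 passed the filter, 1 was higher in NOD (Gm28438), 0 were lower and 6 did not pass the test (limma). Over all genes tested, 9.89% were called, 4.59% higher and 5.3% lower in NOD. Of the copies, 0 were lower also at an unadjusted p below 0.05 and by the authors' adjusted p. Gm28438, the copy of mt-Nd3, held 103, 78 and 129 in NOD and 10, 7 and 13 in B6. The strains were far apart, at 103.3 ± 25.5 and 10 ± 3 (SD, n = 3 each), with a log2 difference of 3.25 (SE 0.34, interval 2.50 to 4.01, limma adjusted p = 8.4e-05). It was called in 15 of 15 alternative settings, and the authors' deposited table gives 3.41 with a standard error of 0.50 and an adjusted p of 5.56e-10.

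Gm28437, the copy of mt-Co3, held 143, 107 and 141 in NOD and 86, 67 and 123 in B6. The strains overlapped, and the log2 difference of 0.53 (SE 0.25, interval -0.03 to 1.09) did not pass the test (limma adjusted p = 0.28). For 3 other copies in the block that passed the filter the strains overlapped: Gm10925 held 34, 14 and 31 and 22, 30 and 36, Gm28661 52, 43 and 52 and 54, 56 and 47, and Gm29216 48, 54 and 63 and 71, 49 and 81. Outside the block, the copies of mt-Co1 and mt-Co2 on chromosome 2 that differ more from their source, Gm13340 (97.605% identity) and Gm13341 (95.906%), held 271 to 313 and 65 to 95 in NOD and 283 to 342 and 56 to 90 in B6.

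Adding each gene to its copies joins the reads counted in either of the near-identical rows. Reads that the counting may have left out for mapping to several places are not recovered. Their part in the sums was not tested. mt-Co3 with Gm28437 held 509, 374 and 475 in NOD and 184, 161 and 223 in B6, 452.7 ± 70.22 against 189.3 ± 31.34. The sum was higher in every NOD library (log2 difference 1.25, SE 0.18, limma adjusted p = 0.00071). mt-Co3 made up 71.9%, 71.4% and 70.3% of the sum in NOD and 53.3%, 58.4% and 44.8% in B6.

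mt-Nd3 with Gm28438 held 109, 80 and 131 in NOD and 19, 16 and 26 in B6, 106.7 ± 25.58 against 20.33 ± 5.132. The sum was also higher in every NOD library (log2 difference 2.33, SE 0.30, interval 1.66 to 3.00, limma adjusted p = 0.00041), although mt-Nd3 alone was lower. The mitochondrial row made up 5.51%, 2.50% and 1.53% of the sum in NOD and 47.4%, 56.3% and 50.0% in B6. The pair differs in the reference at T3C alone over 345 aligned bases, and which base the NOD mitochondrial genome carries there was not analysed here. For the other genes with copies in the block the summed log2 differences were 0.06 (mt-Co2), 0.12 (mt-Atp6), -0.26 (mt-Co1) and 0.24 (mt-Nd4), and none of these 4 passed the test.

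**Figure D5:**
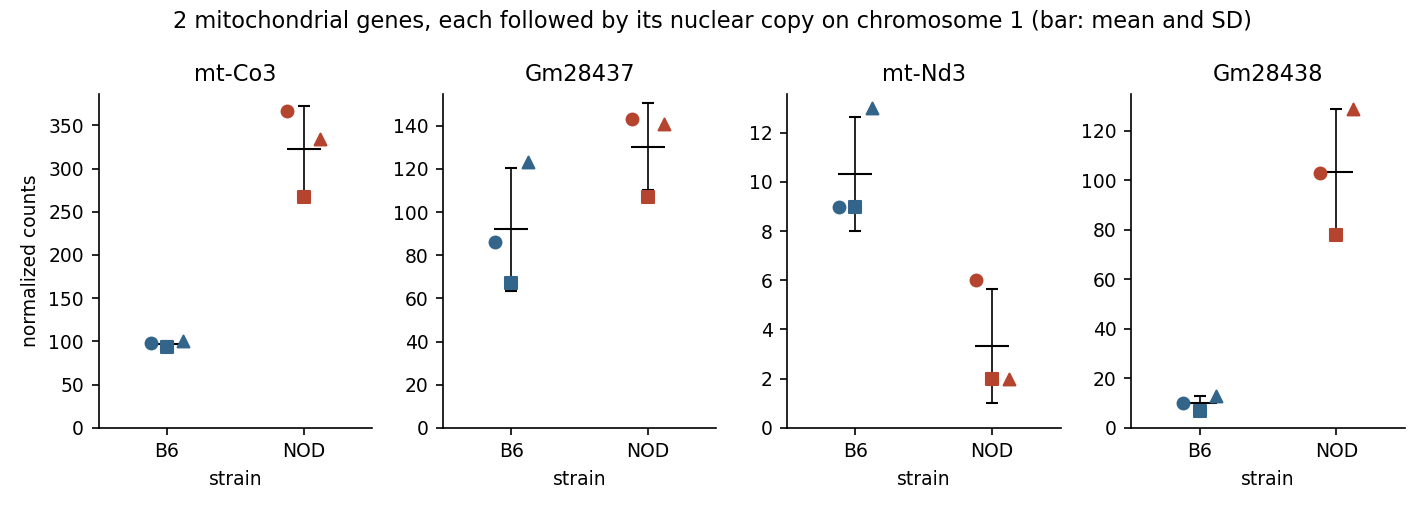
Normalized counts (y axis, a separate scale per panel) of mt-Co3 and its copy Gm28437 and of mt-Nd3 and its copy Gm28438, with points for libraries (circles for NOD library 2 and B6 library 4, squares for 10 and 12, triangles for 18 and 20) and bars for the strain mean with its SD (n = 3). NOD lies above B6 in every library for mt-Co3 and Gm28438 and below it for mt-Nd3, and the strains overlap for Gm28437.

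The nuclear genes that serve this genome were counted as fixed lists. Of 74 genes of mitochondrial RNA metabolism, 72 were in the table and 71 were tested, and 1 was higher, 5 were lower and 65 did not pass the test (8.451% called, beside the 9.89% of all genes; median log2 difference 0.054). Ngrn, needed for assembly of the large mitochondrial ribosomal subunit, held 339, 436 and 360 in NOD and 179, 138 and 199 in B6. It was higher in every NOD library (log2 difference 1.14, SE 0.18, limma adjusted p = 0.0016).

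The 5 lower genes act at different steps: Mterf1a in transcription termination (log2 difference -0.92), Trnt1 in adding the CCA end to tRNAs (-0.42), Cdk5rap1 in tRNA modification (-0.69) and Mtfmt in formylating the initiator tRNA (-0.63), beside the RNA-binding protein gene Fastkd1 (-0.87). Their limma adjusted p ran from 0.023 to 0.049, and without NOD library 18 the count of lower genes was 0. The RNA polymerase Polrmt differed by -0.23 (SE 0.19, adjusted p = 0.6), the packaging and transcription factor Tfam by 0.10 (SE 0.11, adjusted p = 0.73) and the mRNA-stabilising Lrpprc by 0.29 (SE 0.11, adjusted p = 0.13), so none of the 3 passed the test with limma. The Lrpprc libraries did not overlap between strains, and in the authors' deposited table it passes (log2 fold change 0.29, adjusted p 0.032).

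Mitoribosomal protein genes, whose products bind the rRNAs, gave 2 higher (Mrpl35, log2 difference 0.73, and Mrpl10, 0.54) and 1 lower (Mrps5, -0.60) of 76 tested. This was 3.947%, beside the 9.89% of all genes tested. Without NOD library 18 the counts were 0 higher and 0 lower. Of 22 genes that charge mitochondrial tRNAs, 0 were called by limma, beside the same 9.89%. At an unadjusted p below 0.05 limma gave 0 higher and 3 lower, and by the authors' adjusted p 0 were called. Of 19 regulators of mitochondrial content and stress genes, 17 were tested and 1 was called (5.882%, beside the same 9.89%). It was Trib3, a pseudokinase induced in the integrated stress response. Trib3 held 209, 205 and 161 in NOD and 38, 55 and 50 in B6 (log2 difference 1.99, SE 0.23, limma adjusted p = 0.00016).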

How the data were processed

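The labels' protocols describe total RNA taken with a miRNeasy micro kit and made into libraries with the TruSeq Standard Total RNA LT kit. By the submitters' processing notes, the authors worked with Trimmomatic, STAR, DESeq2 and the build mm10. For the counter, the annotation and the strand setting no source used here gives a name. The authors deposited a single table. Its 6 library columns hold scores, which are read counts divided by DESeq2 size factors and rounded, per the file headers. Further deposited columns hold log2 fold changes with standard errors, and p-values before and after adjustment, from the authors' own DESeq2 comparison. Column numbers are not the labels' replicate numbers, so columns were matched to strain only. No other sample columns were left out (0).

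Shares were summed per column. The planned choice of limma for values of this kind was followed: limma 3.58.1 in R 4.3.3, on log2(value + 1), strain only, with a trend, on the 16442 genes that reached 10 normalized counts in 3 or more libraries (in 2 or more for fits that omit a library). No count test was run: in the columns only 59.8% to 100% of low values could be traced to a single whole read count. Depth estimated from the rounding was 15.5 (B6 library 20) to 21.6 (NOD library 18) in units of 1000000 reads. Fold changes of low genes are understated on this scale. TMM factors, an alternative scaling, were computed from their published formula. Adjustment was Benjamini-Hochberg over all genes tested, and the alternatives are given in the closing section. Replicates of a strain differed by more than sampling noise (chi-square per gene 14.5 to 109). On simulated data the script recovered 31.8% of 1.5-fold, 80.6% of 2-fold and 95.4% of 4-fold changes, with 5 false calls. The simulation gave every gene the same dispersion, so these rates may not hold for the uneven mitochondrial rows.

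A genome had been planned for finding nuclear copies. The transcripts of GENCODE M21 were used in its place, with blastn 2.17.0, at 90% identity or more over at least 100 bases and 50% of the copy, so copies outside annotated transcripts are not analysed here. Lengths and positions come from that annotation, which holds 99.3% of tested symbols. The genes and lists were chosen with earlier results of these data known. By the rule for named genes, every mitochondrial row is accounted for. From the nuclear lists come Polrmt, Tfam, Lrpprc and up to 6 called genes each. Copies are named by their match to a member, and Lars2 and CT010467.1 were chosen after their values were seen.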

Additional observations from a re-analysis of the deposited data

How the results depend on the processing

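The alternatives were other scalings (TMM factors, equal totals outside the mitochondrial rows, and mitochondrial genes relative to mitochondrial mRNA), pseudocounts of 0.5 and 10, no filter, robust moderation, protein-coding rows as the denominator, the authors' deposited adjusted p, and each library left out in turn. Leaving out NOD library 10 with B6 library 12, summing members with their nuclear copies, and a block by column order, were added after seeing the data. No result called in the main limma fit changed sign. Several differences that were not called there did, among them the share of all mitochondrial rows, mt-Rnr1 (-0.88 to 0.96 over the alternatives) and mt-Rnr2 (-0.49 to 0.73). mt-Nd3 was not tested in the main fit. Its log2 difference was -1.49 with no filter (not called) and 2.33 when summed with its copy Gm28438 (called). Mitochondrial genes called higher in NOD numbered 1, and 2 when summed with copies (mt-Co3 and mt-Nd3), with 1 to 2 when single libraries were left out (mt-Nd6 was gained without NOD library 10). Genes of mitochondrial RNA metabolism called higher numbered 1, 3 by the authors' adjusted p, and 1 to 2 with a library left out. Those called lower numbered 5, 2 without NOD library 10 and B6 library 12, and 0 to 4 with a single library left out. Mitoribosomal genes called higher numbered 2, 1 with equal totals outside the mitochondrial rows, 1 with no filter, 0 without NOD library 10 and B6 library 12, and 0 to 1 with a library left out. Those called lower numbered 1, 0 without those 2 libraries, 2 by the authors' adjusted p, and 0 to 2 with a library left out. Synthetase genes called higher numbered 0, and 0 to 1 with a library left out (Lars2 without NOD library 2). Biogenesis and stress genes called lower numbered 0, and 1 without NOD library 10 and B6 library 12. The causes were not tested. Over all mitochondrial rows the difference in share ranged from -1.233 to 2.369 percentage points with a library left out, within the spread between libraries. The columns carry no replicate number of the labels, so the labels pair no libraries. Taking the order of the column numbers as a replicate block (2 with 4, 10 with 12, 18 with 20), an assumed pairing, the within-strain deviations of these pairs correlated at 0.01, 0.18 and 0.13 across genes, and NOD library 2 correlated best with B6 library 20 (0.10). Under this block 2027 genes were called in place of 1626. mt-Co3 was again the only mitochondrial gene called (1.71, limma adjusted p = 2.8e-05) and Gm28438 the only copy, the standard error of mt-Rnr1 and of mt-Rnr2 was 0.13, mt-Co1 had -0.26 with an adjusted p of 0.12, and RNA metabolism genes called higher numbered 2 (Polg2 was gained). Rows with few reads, such as mt-Nd3, mt-Atp8 and mt-Nd4l, are limited by depth.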
